A study of Mus musculus with 5 samples.

Results

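Macrophages can make cholesterol, take it up, store it as ester and export it, and 35 genes of these tasks were followed in cardiac macrophages after myocardial infarction. They were taken by symbol from the 21289 genes of the count table, and all 35 were found. By role 18 were enzymes of sterol synthesis, and 4 encode or regulate the transcription factor SREBP2 or move sterol as its targets. The rest were 6 receptors and targets of LXR, 3 genes of fatty acid synthesis and 4 genes of lysosomal and stored sterol. The RNA came from CD45+CD64+ cells sorted from infarcted hearts of wild-type male C57BL/6JGpt mice on day 7, in 2 samples without and 3 with curcumol, a plant sesquiterpene given by gavage at 30 mg/kg each day. All 5 samples carried the infarct, and none came from an uninjured heart. The sources used here give no age of the mice, no vehicle for the untreated ones and no word on pooling of animals. The p-values therefore measure only the spread between these samples.

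Cells hold their cholesterol within limits by a pair of opposed transcriptional programs. When sterol in the endoplasmic reticulum is low, SCAP escorts SREBP2 to the Golgi, where it is cut and released to switch on the enzymes of the mevalonate and sterol pathway, while INSIG1 holds SCAP back when sterol is high. Oxysterols and the intermediate desmosterol activate the nuclear receptors LXR alpha (Nr1h3) and LXR beta (Nr1h2), which raise the exporters Abca1 and Abcg1, the ubiquitin ligase Mylip, which limits lipoprotein uptake, and Srebf1 with its fatty acid targets. Macrophages that clear dead cells take in their cholesterol, and export through the LXR targets is a known part of that work.

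The bases before the transcription start of 5 members are shown because they carry the letters by which these programs are known. The sequences are from RefSeq (GRCm38.p6), which held a promoter for 27 of the 35 members, and each run is the 250 bases before an annotated start, 5′ to 3′ on the gene's strand. Capitals mark the core of the direct repeat DR4, the element that LXR binds with its partner RXR, searched on either strand as a pair of GGTNA in the same direction with 5 bases between them, in Abca1 (chr4:53159896-53160145, minus strand), in Srebf1 upstream of an annotated start (chr11:60210472-60210721, minus strand) and in Fasn (chr11:120824548-120824797, minus strand).
Abca1: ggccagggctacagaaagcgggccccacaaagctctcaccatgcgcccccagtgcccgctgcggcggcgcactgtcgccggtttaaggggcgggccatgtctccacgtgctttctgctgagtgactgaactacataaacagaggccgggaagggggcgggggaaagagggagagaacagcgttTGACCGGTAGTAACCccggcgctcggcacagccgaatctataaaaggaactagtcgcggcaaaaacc
Srebf1: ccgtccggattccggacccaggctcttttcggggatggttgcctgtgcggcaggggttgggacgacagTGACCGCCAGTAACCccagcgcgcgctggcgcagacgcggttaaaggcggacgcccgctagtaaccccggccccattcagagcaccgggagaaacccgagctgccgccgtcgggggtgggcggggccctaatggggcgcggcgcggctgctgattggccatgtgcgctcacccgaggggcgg
Fasn: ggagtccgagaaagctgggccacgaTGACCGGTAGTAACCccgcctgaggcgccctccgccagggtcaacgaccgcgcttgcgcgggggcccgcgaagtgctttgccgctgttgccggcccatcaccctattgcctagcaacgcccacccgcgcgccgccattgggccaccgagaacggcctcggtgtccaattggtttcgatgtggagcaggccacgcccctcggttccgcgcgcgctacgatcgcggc
For 2 enzymes, Hmgcs1 (chr13:119690101-119690350, plus strand) and Msmo1 (chr8:64733579-64733828, minus strand), capitals mark CCAAT on either strand and, in Hmgcs1, also the sterol response element searched as TCACNCCAC.
Hmgcs1: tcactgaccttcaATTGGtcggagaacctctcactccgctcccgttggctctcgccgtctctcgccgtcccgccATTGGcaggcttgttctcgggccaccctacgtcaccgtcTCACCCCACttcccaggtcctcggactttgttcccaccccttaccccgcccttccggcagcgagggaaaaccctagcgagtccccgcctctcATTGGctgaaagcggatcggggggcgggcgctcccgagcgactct
Msmo1: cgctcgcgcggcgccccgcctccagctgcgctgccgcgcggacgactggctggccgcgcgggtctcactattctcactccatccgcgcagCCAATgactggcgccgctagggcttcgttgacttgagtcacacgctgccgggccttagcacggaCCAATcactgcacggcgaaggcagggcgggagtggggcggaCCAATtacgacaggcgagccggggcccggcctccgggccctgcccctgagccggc
The DR4 core was found in 3 of the 27 members with a promoter entry, Abca1, Srebf1 and Fasn, and in 0.454% of the 11442 tested genes with one. CCAAT, the letters bound by NF-Y, a partner of SREBP2, stood in 14 of the 15 enzymes with an entry (all but Acat2) and in 39.9% of those tested genes. The GC box GGGCGG also stood in 14 of the 15, against 58.7%. The sterol response element was found in Hmgcs1 alone among the members and in 1.22% of tested genes. Where a gene had several annotated starts, each was searched on either strand. The letters of the DR4 core were settled with these promoters in view, a match describes the sequence only, and the counts do not show which start was used.

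Levels are CPM, the share of a gene in a library total scaled by edgeR's TMM factors, times 1e6, given in the order untreated replicates 1 and 2, then curcumol replicates 1, 2 and 3. A log2 fold change is that of curcumol over untreated, ± SE (n = 3 and 2). A gene passed if its Benjamini-Hochberg adjusted p over all 14508 tested genes, from the quasi-likelihood test of edgeR, was under 0.05. Totals ranged from 39768705 to 43315822 counts, but the untreated libraries detected 12243 and 12915 genes and the curcumol libraries 17078 to 18501. The median of the absolute log2 difference between the untreated libraries was 0.78 for genes at 3 to 30 CPM, the range of 13 of the 18 enzymes, against 0.30 to 0.35 between curcumol libraries. Of all tested genes 30 passed (0.207%), 10 higher (0.0689%) and 20 lower (0.138%). That count was 1, 0 and 19 without curcumol replicate 1, 2 or 3, and 2950 and 3531 without untreated replicate 1 or 2. All 10 macrophage markers had counts in every library, Fcgr1, which encodes CD64, at 349 and 373 CPM without and 329, 300 and 249 CPM with curcumol. These markers had no common direction, 5 with positive and 5 with negative values and none passing, from Mertk and Itgam with 2.57-fold and 2.55-fold higher means to Cd68 with a 1.76-fold lower one. Summed markers of neutrophils stood at 311 and 325 CPM without and 3379, 1434 and 2905 CPM with curcumol. The curcumol libraries lay apart and higher for 9 of 9, beside 29.5% of tested genes, and 2 of the 9 were at 0 in each untreated library. The 7 fibroblast markers summed to 36.8 and 29.0 against 131, 156 and 329 CPM, with 3 and 2 of them at 0 in the untreated libraries. The 6 endothelial markers summed to 25.3 and 33.5 against 52.7, 93.9 and 68.1 CPM, again with 3 and 2 at 0. A list of early stress genes that tissue dissociation raises stood at 42355 and 44031 CPM without and 19611, 13103 and 21792 CPM with curcumol. The part of these differences in the values below was not tested, and in bulk RNA fewer cells of a type and less RNA per cell cannot be told apart.

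None of the 35 members passed in edgeR (0.207% of tested genes did). With 20 positive and 15 negative values their median log2 fold change was 0.10, beside 0.15 and 57.1% positive for all tested genes. Before adjustment 6 members (17.1%) had a p under 0.05, 3 in each direction, as did 24.6% of tested genes (18.1% higher and 6.51% lower). Fits without 1 untreated library take the lone untreated library to vary like the curcumol ones. For members only their effect sizes are therefore given below. Without any 1 curcumol library the fit called no member. Of the 6 members with an unadjusted p under 0.05, the higher ones were Abca1, Abcg1 and Scd1 and the lower ones Nr1h2, Msmo1 and Lipa. DESeq2 called 4 members, Abca1 and Scd1 higher and Nr1h2 and Lipa lower, where it called 16.2% of its genes (11.5% higher and 4.63% lower). Limma-voom called Abca1, Scd1 and Nr1h2, where it called 11.4% (9.72% higher and 1.73% lower). Variants of the edgeR fit called no member with total counts as scaling (0.0689% of genes), a replicate block (0.31%), no filter on low counts (2.03%) or a CPM of at least 1 in 2 libraries (0.802%). The curcumol libraries lay apart from the untreated ones for 13 members (37.1%), 10 higher and 3 lower, as for 44.4% of tested genes (29.5% higher and 14.9% lower).

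**Figure D1:**
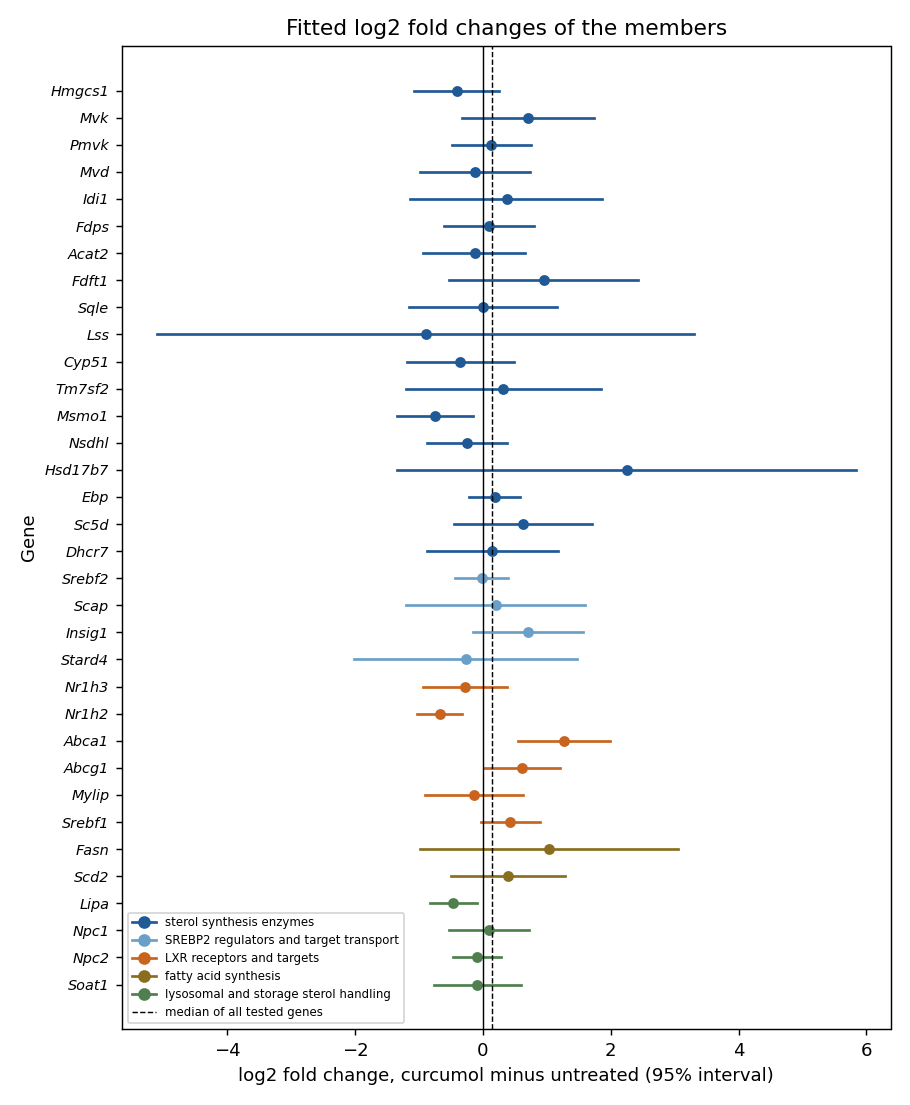
Fitted log2 fold change, curcumol minus untreated, of 34 members (points) with 95% intervals (lines), coloured by role, with the median of all tested genes at 0.15 as a dashed line; Scd1 is left out because both untreated libraries had no count. The enzymes lie on either side of 0, while Abca1 at 1.27 and Nr1h2 at -0.67 lie on opposite sides with intervals that leave out 0. The intervals of Msmo1, Lipa and Abcg1 also leave out 0. Intervals are not adjusted for the number of genes, and no member passed.

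The enzymes of sterol synthesis showed no common shift with curcumol. Their log2 fold changes were positive for 11 of 18 and negative for 7, with a median of 0.11. The groups lay apart for 3 higher (Mvk, Hsd17b7 and Ebp) and 1 lower (Msmo1), 22.2% of the enzymes beside 44.4% of tested genes (29.5% higher and 14.9% lower). None passed, with adjusted p from 0.123 to 0.999. Their summed level was 445 and 485 CPM without curcumol and 517, 363 and 447 CPM with it.

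**Figure D2:**
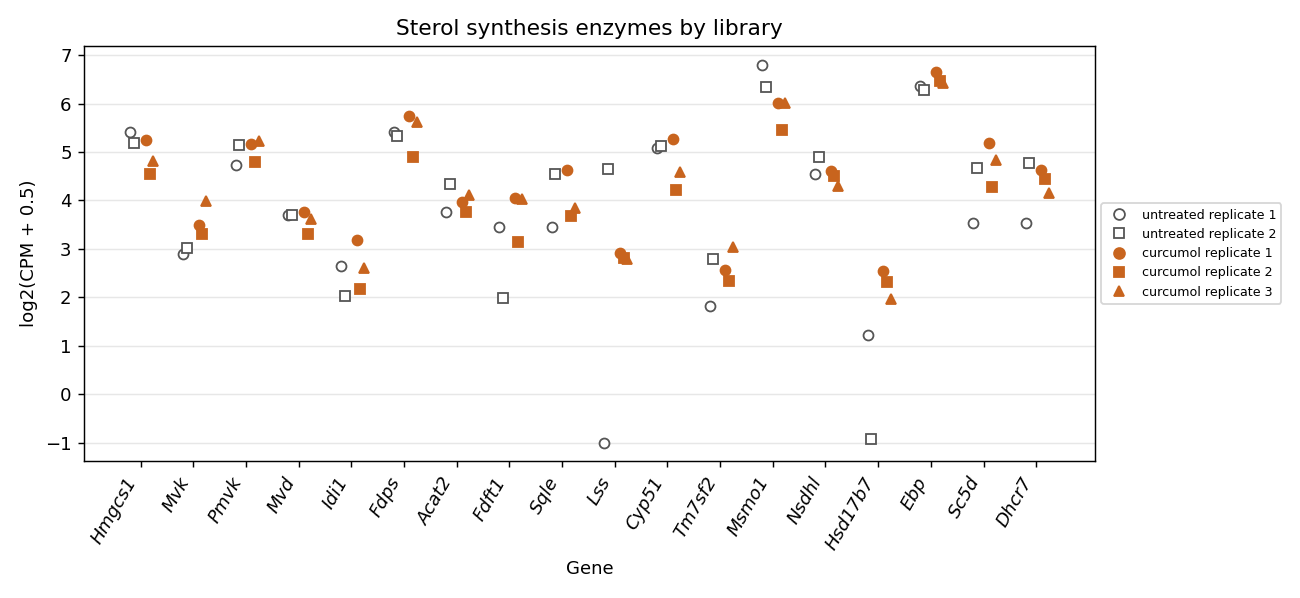
Level of each of the 18 sterol synthesis enzymes in every library as log2(CPM + 0.5), open grey symbols untreated and filled orange symbols curcumol, with the symbol shape giving the replicate number. The groups overlap for 14 enzymes, Lss has no count in untreated replicate 1, and curcumol replicate 2 (squares) is the lowest curcumol library for 13 enzymes.

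The pathway opens with the mevalonate steps. Hmgcs1, which makes HMG-CoA, stood at 42.1 and 36.1 CPM without and 37.7, 22.8 and 27.6 CPM with curcumol (-0.41 ± 0.27, adjusted p = 0.426). Curcumol replicate 1 lay inside the untreated range and the other two below it. Mvk, mevalonate kinase, stood at 6.97 and 7.57 against 10.8, 9.45 and 15.4 CPM (0.71 ± 0.43, adjusted p = 0.371), so that all curcumol libraries were higher. The next kinase, Pmvk, stood at 25.9 and 34.8 against 35.2, 27.3 and 37.0 CPM, and the decarboxylase Mvd at 12.5 and 12.4 against 13.1, 9.38 and 11.7 CPM. In both the groups overlapped. Acat2, the cytosolic thiolase that supplies acetoacetyl-CoA, stood at 13.1 and 19.8 against 15.2, 13.1 and 16.7 CPM.

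At the prenyl and squalene steps libraries of the same group often stood far apart, and none of these enzymes had separate groups. Idi1, the isomerase of isopentenyl diphosphate, stood at 5.80 and 3.58 CPM without and 8.56, 4.0 and 5.61 CPM with curcumol. Fdps, which makes farnesyl diphosphate, stood at 42.0 and 40 against 52.9, 29.3 and 49.0 CPM. The untreated libraries nearly coincided and the curcumol libraries spread to either side of them, and 77.4% of its exonic bases are shared in the GENCODE M21 basic set with the gene model Gm43738 on the same strand. Fdft1, squalene synthase, stood at 10.5 and 3.43 against 16.1, 8.33 and 15.8 CPM (0.95 ± 0.61, adjusted p = 0.412). Its value was 1.97 without untreated replicate 1 and 0.38 without untreated replicate 2. Its exons share 20.9% of their bases with those of the cathepsin gene Ctsb on the other strand. The Fdft1 count is therefore uncertain if strand was not used. Sqle, the squalene epoxidase that limits the later pathway, stood at 10.4 and 23.0 against 24.1, 12.3 and 13.9 CPM, the same mean of 16.7 CPM in both groups.

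Lss, the cyclase that makes lanosterol, was the one enzyme with no count in a library. It had 0 counts in untreated replicate 1 and 967 in untreated replicate 2 (24.7 CPM), against 7.05, 6.56 and 6.37 CPM with curcumol. The 3 curcumol libraries agreed closely and lay between the untreated values, so no direction can be given, and a count of 0 allows up to 0.0760 CPM in that library. Hsd17b7, a ketosteroid reductase of the pathway, had 72 counts and 1 count in the untreated libraries and 224, 197 and 144 with curcumol. At 1.82 and 0.0256 CPM without and 5.35, 4.47 and 3.38 CPM with curcumol it was higher in all curcumol libraries (2.25 ± 1.49, adjusted p = 0.422). Without untreated replicate 1 the value was 7.27, fitted against a single count, and without untreated replicate 2 it was 1.29. Untreated libraries differed by over 2-fold for 7 of the 18 enzymes, and for 34.9% of all tested genes.

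Among the steps from lanosterol to cholesterol, Msmo1 was the enzyme with the smallest p. Msmo1, a methyl sterol oxidase, stood at 111 and 80.9 CPM without and 63.8, 43.2 and 64.3 CPM with curcumol, 1.68-fold lower (-0.75 ± 0.25, adjusted p = 0.123). All 3 curcumol libraries were below both untreated ones. The log2 fold change of Msmo1 was -0.94 without untreated replicate 2 and -0.50 without untreated replicate 1. The demethylase Cyp51, which acts before Msmo1, stood at 33.2 and 34.2 against 38.0, 18 and 23.4 CPM. Nsdhl, which acts with Msmo1, stood at 22.9 and 29.1 against 24.0, 22.3 and 19.1 CPM. Neither had separate groups. The reductase Tm7sf2 stood at 3.02 and 6.37 against 5.43, 4.52 and 7.68 CPM. Ebp, the sterol isomerase, was the enzyme with the highest level per kilobase of transcript, 49.6 CPM per kb over all libraries. It stood at 82.1 and 77.6 against 100, 87.6 and 84.9 CPM (0.19 ± 0.16, adjusted p = 0.557), higher in all curcumol libraries by a small step. Sc5d, the desaturase, stood at 11 and 24.8 against 35.7, 19.0 and 28.1 CPM, and Dhcr7, the last reductase, at 11 and 26.8 against 24.2, 21.1 and 17.4 CPM. Sc5d, at 0.62, was at 1.35 without untreated replicate 2 and at 0.16 without untreated replicate 1. For Sc5d and Dhcr7 the curcumol values were less far apart than the untreated ones on a log scale.

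The genes that govern SREBP2 did not pass either. Srebf2 itself stood at 62.4 and 56.6 CPM without and 60.8, 61.7 and 54.1 CPM with curcumol, a log2 difference of -0.02 with a 95% interval of -0.43 to 0.40. The escort Scap stood at 6.23 and 24.7 against 14.3, 21.7 and 17.5 CPM, inside the untreated range. Its log2 fold change was 1.53 without untreated replicate 2 and -0.47 without untreated replicate 1. Insig1, the retention protein and itself a target of SREBP2, stood at 16.1 and 10.6 against 16.9, 27.1 and 21.5 CPM (0.71 ± 0.35, adjusted p = 0.281). It was higher in all curcumol libraries, in replicate 1 by little. The sterol carrier Stard4 stood at 10.2 and 2.51 against 4.54, 4.88 and 6.44 CPM.

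The LXR genes divided, the exporters and Srebf1 lying higher with curcumol and Nr1h2 lower. Abca1, which loads cholesterol onto lipid-poor apolipoprotein, stood at 46.5 and 88.9 CPM without and 145, 171 and 174 CPM with curcumol, a 2.41-fold higher mean (1.27 ± 0.30, adjusted p = 0.0709). The groups lay apart, and the untreated replicates differed from each other more than any 2 curcumol libraries. DESeq2 and limma-voom called it (adjusted p of 0.00124 and 0.0347), and no edgeR variant with all libraries did. The log2 fold change was 0.88 without untreated replicate 1 and 1.83 without untreated replicate 2. Abcg1, which exports cholesterol to mature HDL, stood at 101 and 85.3 against 113, 184 and 132 CPM (0.61 ± 0.25, adjusted p = 0.189), with curcumol replicate 1 close to the untreated libraries. Srebf1, the LXR target that drives fatty acid synthesis, stood at 39.9 and 33.8 against 52.0, 50.5 and 46.8 CPM (0.43 ± 0.19, adjusted p = 0.227). All 3 curcumol libraries were above both untreated ones.

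Of the 2 receptors, the more abundant one was lower with curcumol. Nr1h2, LXR beta, stood at 167 and 168 CPM without and 109, 97.9 and 107 CPM with curcumol, 1.6-fold lower (-0.67 ± 0.15, adjusted p = 0.0665), the smallest adjusted p of the 35 members. Both groups were tight and lay apart. Of 12 alternatives 2 called it, with adjusted p from 2.7e-05 to 0.331. Nr1h3, LXR alpha, stood at 24.5 and 30.6 against 21.2, 27.3 and 19.2 CPM (-0.28 ± 0.27, adjusted p = 0.597), with overlap. Per kilobase of transcript Nr1h2 was the more abundant receptor in both groups, at 83.8 and 52.5 CPM per kb without and with curcumol, against 14.1 and 11.6 for Nr1h3. Mylip, the ubiquitin ligase, stood at 24.9 and 46.2 against 28.7, 30.1 and 38.0 CPM, inside the untreated range. The 6 genes thus had 3 positive and 3 negative differences, and their median of 0.15 equals that of all tested genes. The median was 0.37 without untreated replicate 2 and 0.06 without untreated replicate 1.

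**Figure D3:**
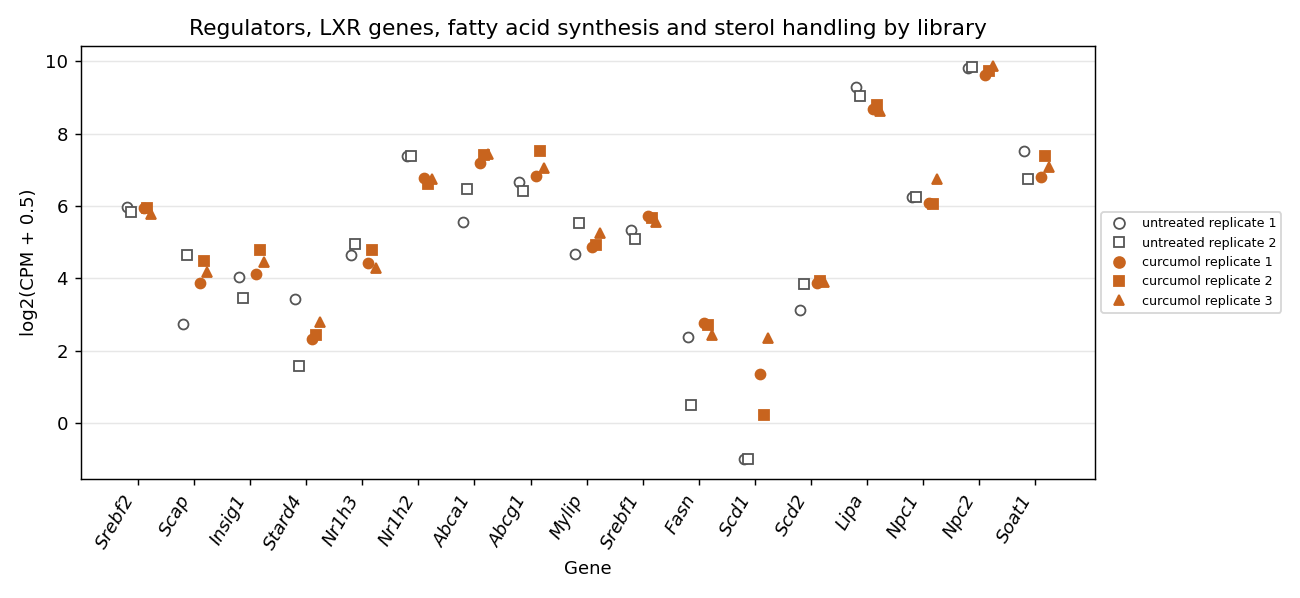
Level of the 17 other members in every library as log2(CPM + 0.5), with symbols as in the plot of the enzymes. Insig1, Abca1, Abcg1, Srebf1, Fasn, Scd1 and Scd2 are higher in all curcumol libraries, and Nr1h2 and Lipa are lower in all of them. Srebf2 stands at a similar level in both groups.

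The fatty acid genes were scarce in these cells. All 3 had curcumol libraries above both untreated ones, as 29.5% of tested genes did, for Scd2 and Fasn by a narrow margin. Scd1, the stearoyl-CoA desaturase that LXR and SREBP1 induce, had 0 counts in both untreated libraries and 87, 30 and 198 counts with curcumol (2.08, 0.681 and 4.65 CPM). Taking 3 counts as the floor of each untreated library, the curcumol mean was at least 32.4-fold higher (adjusted p = 0.0679), a bound that covers counting error only. DESeq2 and limma-voom called it (adjusted p of 0.000182 and 0.0248), and no edgeR variant with all libraries did. Its mean curcumol level per kilobase, 0.511 CPM per kb, was the lowest of the members. The part of the lower number of genes detected in the untreated libraries was not tested. Of the fat cell markers, Adipoq was at 0 in 4 libraries and at 0.167 CPM in curcumol replicate 1. Cfd stood at 0 and 2.48 CPM without and 0, 0 and 0.094 CPM with curcumol, and Pparg, which macrophages also express, at 49.2 and 62.7 against 23.1, 27.1 and 23.9 CPM. Scd2, the paralog of Scd1, stood at 8.29 and 13.8 against 14.1, 14.7 and 14.5 CPM (0.39 ± 0.37, adjusted p = 0.595). Fasn, the fatty acid synthase, stood at 4.74 and 0.921 against 6.31, 6.09 and 4.91 CPM (1.03 ± 0.84, adjusted p = 0.526). Its value was 2.65 without untreated replicate 1 and 0.30 without untreated replicate 2. The 3 members whose promoters hold the DR4 core shown above, Abca1, Srebf1 and Fasn, were all higher in every curcumol library, as 29.5% of tested genes were. The DR4 letters were settled with these promoters in view and the members were chosen with results known, so a link was not tested.

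Genes that free sterol from the lysosome or store it were abundant, and none passed. Lipa, the lysosomal acid lipase that frees cholesterol from esters, stood at 622 and 522 CPM without and 408, 441 and 398 CPM with curcumol, 1.38-fold lower (-0.46 ± 0.15, adjusted p = 0.127). The groups lay apart. Npc2 and Npc1 hand that cholesterol out of the lysosome. Npc2, at 266 CPM per kb the most abundant member per length, stood at 904 and 919 against 782, 844 and 943 CPM. Npc1 stood at 75.8 and 75.1 against 66.8, 66.4 and 108 CPM, with curcumol replicate 3 high and the other two low. Soat1, which turns cholesterol into stored ester, stood at 184 and 107 against 111, 166 and 135 CPM, inside the untreated range.

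Set against each other, the synthesis and LXR sides gave a direction that depended on which genes stood for them. The mean log2 CPM of the 18 enzymes was 3.49 and 3.90 without and 4.38, 3.85 and 4.17 with curcumol. That of the 6 LXR genes was 5.69 and 5.97 without and 5.96, 6.15 and 6.05 with curcumol. The difference, synthesis minus LXR, was -2.20 and -2.07 in the untreated and -1.57, -2.30 and -1.88 in the curcumol libraries, so the groups overlapped, and the group means were 0.22 apart with a pooled SD of 0.30 within groups. That distance was 0.05 without curcumol replicate 1 and 0.41 without curcumol replicate 2. With the 14 enzymes that averaged at least 10 CPM, chosen after the data were seen, it was -1.26 and -1.34 against -1.09, -1.85 and -1.40, 0.15 in the other direction. The 4 enzymes left out were Idi1, Lss, Tm7sf2 and Hsd17b7, of which Lss and Hsd17b7 had 0 counts and 1 count in an untreated library.

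The synthesis side minus Abca1 and Abcg1 alone was lower in every curcumol library than in the untreated ones. The 18 enzymes with the 4 regulators minus the 2 exporters gave -2.52 and -2.56 without and -2.68, -3.53 and -3.06 with curcumol. With the 14 more abundant enzymes the values were -1.66 and -1.82 against -2.14, -3.17 and -2.59. This gap lay with the exporters. Their mean log2 CPM was 6.10 and 6.44 without and 7.00, 7.47 and 7.24 with curcumol. The 18 enzymes with the 4 regulators averaged 3.58 and 3.88 without and 4.31, 3.95 and 4.18 with curcumol, higher in every curcumol library. The 14 enzymes averaged 4.44 and 4.63 against 4.86, 4.30 and 4.65, with overlap. No test was made of these sums, since the members were chosen with results known.

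**Figure D4:**
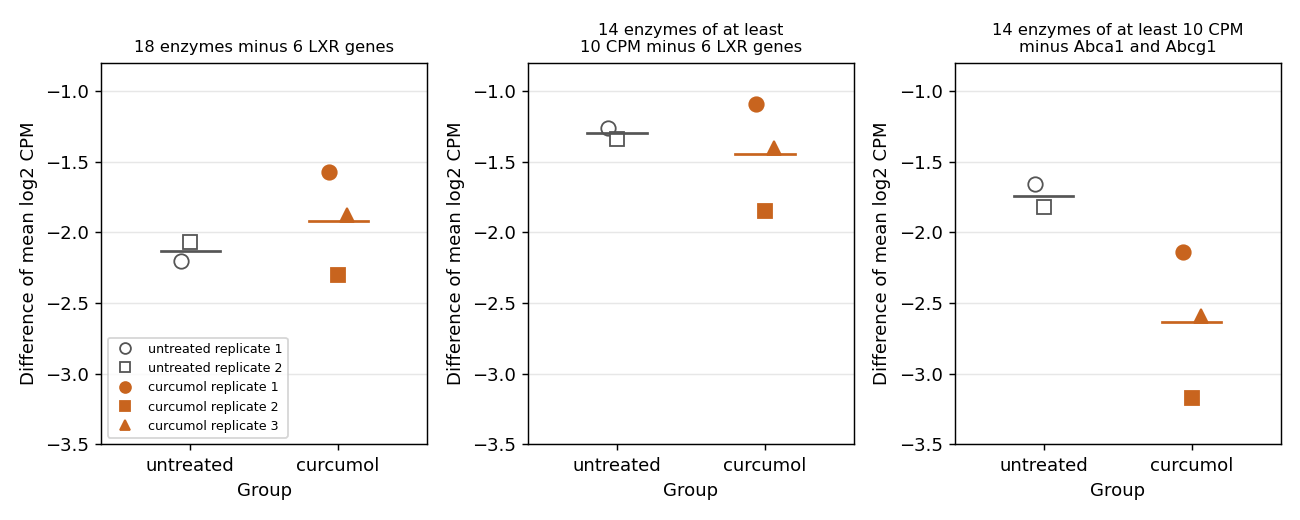
Difference between mean log2 CPM of synthesis enzymes and of LXR genes in each library (points, shape by replicate) with group means (lines), for 3 choices of genes. The groups overlap in the left and middle panels and lie apart in the right panel, where Abca1 and Abcg1 alone stand for the LXR side.

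Within the curcumol group replicate 1 was often the highest and replicate 2 the lowest for the enzymes. Of the 18 enzymes 13 had their highest curcumol value in replicate 1 and none in replicate 2, and 13 had their lowest in replicate 2 and none in replicate 1. Of all tested genes 31.4% were highest in replicate 1 and 33.7% lowest in replicate 2. Both at once held for 8 enzymes, among them Hmgcs1, Sqle, Idi1, Fdps and Cyp51, and for 15.6% of tested genes. Abcg1 and Insig1 had the reverse order, highest in replicate 2 and lowest in replicate 1. Summed neutrophil markers were also highest in replicate 1 and lowest in replicate 2, and their part in this order was not tested. The pattern was noticed in these 3 libraries and has no replicate.

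Other genes of the same pathways were counted from lists written beside the members. Of 14 further genes of sterol and prenyl synthesis, 6 had positive and 8 negative differences, and none passed or had separate groups. Fnta and Erg28, the 2 with the smallest p of that list, had adjusted p of 0.459 and 0.482. Of 16 tested genes of SREBP processing and its targets, 9 were positive with a median of 0.60, and none passed. For all tested genes the median was 0.15, with 57.1% positive. In this list the groups lay apart for 6 higher and 2 lower genes, where 29.5% of tested genes were apart higher and 14.9% apart lower. Fads1, a fatty acid desaturase, stood at 33.0 and 40.9 against 57.9, 75.0 and 64.2 CPM (0.83 ± 0.21, adjusted p = 0.0768).

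Of 17 tested partners and further targets of LXR, 7 had positive and 10 negative differences (median -0.17), and none passed. Lpl, lipoprotein lipase, stood at 405 and 324 CPM without and 214, 194 and 205 CPM with curcumol (-0.83 ± 0.16, adjusted p = 0.0651). Lpcat3, which builds polyunsaturated phospholipids, stood at 91.4 and 79.3 against 53.2, 49.0 and 47.9 CPM (-0.77 ± 0.17, adjusted p = 0.0669). Both are known LXR targets, and both were lower in all curcumol libraries, the reverse of Abca1. For this list the groups lay apart for 2 higher and 6 lower genes, where 29.5% of tested genes were apart higher and 14.9% apart lower. Of 18 genes of sterol traffic, esters and oxysterols, 10 were positive and 8 negative (median 0.08), and none passed. Gramd1c, a sterol transfer protein, had no count in the untreated libraries and 0.956, 0.273 and 0.893 CPM in the curcumol ones, which against the same floor is at least 9.26-fold higher (adjusted p = 0.0756). Scarb1, the HDL receptor, stood at 76.4 and 74.2 against 104, 101 and 103 CPM (0.45 ± 0.15, adjusted p = 0.124).

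The deposited table carries Reactome terms, which give gene groups made without these results. Its term for cholesterol biosynthesis held 26 genes, 20 of them members, and 14 of the 25 tested were positive and 11 negative (median 0.09, none passing). Its term for SREBP control of cholesterol biosynthesis held 7 genes, 3 of them members, and 4 of the 7 were positive and 3 negative (median 0.20, none passing). Its term for LXR control of cholesterol transport and efflux held 12 genes, 3 of them members (Abca1, Nr1h2 and Nr1h3). Of those 12 genes 9 were positive and 3 negative (median 0.35, none passing), beside 57.1% positive and a median of 0.15 for all tested genes. The other 9 genes of that term encode receptor partners and coregulators, such as Rxra and Hdac3.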

How the data were processed

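Messenger RNA of CD45+CD64+ cardiac cells was sequenced in 2 untreated and 3 curcumol libraries. The authors deposited counts per gene, whole numbers without normalization. Fastp, HISAT2, HTSeq and Bowtie2 are the tools named, per the submitters' processing notes. The genome build is not given in the sources used here. Per the labels' protocols the kit was VAHTS Universal, while the series' design text names a stranded TruSeq kit, so strandedness is unsettled.

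Columns were tied to samples by title. Every gene was fitted in edgeR 4.0.16 (R 4.3.3) with TMM, filterByExpr (minimum count 10), and a two-sided quasi-likelihood test with 3 residual degrees of freedom and Benjamini-Hochberg adjustment. The root of the common dispersion came to 0.61. SEs come from the fold change and F statistic. The fit was tested on simulated counts. Those were drawn with a smaller dispersion than that of these data, so the test does not show how well the fit works here. Alternatives used DESeq2 1.42.0, limma-voom (limma 3.58.1), other scalings, filters, a replicate block and leaving out each library. Log2 CPM means used a prior count of 2. Transcript lengths are those of the longest protein-coding transcript in GENCODE M21, and shared exons are from its basic set.

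The members and all lists were chosen with earlier results of these data known. All 35 members are named, and of other pathway lists the 2 genes with the smallest p, except where a result is not reported here. Faxdc2 and 4 markers (Trac, Plin1, Cidec and Lep) were not analysed here.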

Additional observations from a re-analysis of the deposited data

How the results depend on the processing

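No member passed in edgeR with RLE factors, total counts, no filter, a CPM of at least 1 in 2 libraries or a replicate block, while DESeq2 called 4 and limma-voom 3, and leaving out a library gave 0 to 6. Over all tested genes the 30 calls became 2346 (DESeq2), 1661 (limma-voom), 416 (no filter), 98 (CPM of at least 1) and 10 (total counts), and 0 to 3531 without a library; the cause was not tested.

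The replicate block, whose numbers nothing ties to shared animals, called 45 genes and no member, and gave medians of 0.16 for the enzymes and 0.15 for the LXR genes. Deviations of same-numbered libraries correlated at 0.026 and -0.027. With 2 untreated libraries their deviations mirror each other, so these values are not 2 independent checks of pairing. Total counts moved the median of all genes from 0.15 to 0.34 and that of the LXR genes to 0.33, and turned the sign of Mvd, Acat2, Srebf2, Mylip, Npc2 and Soat1. Leaving out a library gave LXR medians of 0.06 to 0.37 and enzyme medians of -0.12 to 0.30. The gap between synthesis and LXR, 0.22, was -0.15 with the more abundant enzymes. It was -0.55 for enzymes and regulators against the exporters alone, and -0.89 for the more abundant enzymes against the exporters alone. Lss had a fitted value of 11.13 without untreated replicate 2, against a library with no count, -1.89 without untreated replicate 1, 3.58 in limma-voom and 2.60 with the replicate block. Counts of single libraries limit genes below about 10 CPM most.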
